A study of Mus musculus with 4 samples.

Results

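The features described here report cytokines, chemokines, interferons, their receptors and the signalling genes behind them: 281 features of 187 genes on microarrays of mouse dentate gyrus. They were chosen by name. A feature was taken when the platform gave it 1 gene symbol, that symbol began as those of the Ccl, Cxcl, Ccr, Cxcr, Il, Tnf, Ifn, Ifi, Ifit, Irf, Stat, Socs, Nfkb and Tlr families do, and the feature had a value on at least 1 array. Of the 339 features with such a symbol, 281 had a value, out of 12221 named features with a value and 16281 features in all. Values on all 4 arrays were held by 123 of them, from 101 genes, and by 7684 named features of the whole table. The study hybridised dentate gyrus RNA of young male C57BL/6J mice injected with MK-801 at 300 µg per g body weight (Cy5) against that of mice injected with saline at 5 µL per g (Cy3), with 1 array for each of 1, 2, 4 and 6 h. MK-801 (dizocilpine) blocks the channel of NMDA-type glutamate receptors. Its dose is given as labelled, and the unit of µg per g may be an error. The labels time the arrays from the last shock of the MK-801 mice yet call the RNA that of control mice, which leaves unclear whether any of them had been shocked, and no label gives the number of mice pooled. No time was repeated and the dyes were not swapped, so treatment and dye cannot be told apart.

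Each deposited value is a log ratio of the channels, read as log2. Neither the log base nor the direction is stated, so a value is given by its sign alone and no treatment is called higher. If the logarithms were natural, every size would grow by a constant factor. All 4 arrays were taken to run the same way, as their labels are worded alike. An exact 0 was read as no value, and each array was centred on the median of its other values. Levels of RNA were not among the values used here, so the dentate gyrus label could not be checked by the abundance of its markers. Fewer cells of a type and less RNA per cell cannot be told apart in such tissue.

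Cytokines and chemokines are secreted proteins that carry signals between immune cells, glia and neurons. Interferons and many interleukins bind receptors that act through Janus kinases and STAT transcription factors, and SOCS proteins, induced by that route, switch it off. Tumour necrosis factor, interleukin 1 and Toll-like receptors lead instead to NF-κB, which IκB proteins such as those of Nfkbia and Nfkbib hold in the cytoplasm. In brain, microglia and astrocytes are well-known sources of these signals, and the Cxcl12 and Cxcr4 pair also guides granule cells and their precursors in the dentate gyrus.

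Promoter sequences are shown for 4 members among those described below whose mean over 2, 4 and 6 h passed the test. Their windows hold a letter pattern of STAT, interferon regulatory or NF-κB binding sites. The sequences are from RefSeq on GRCm38.p6 and run from 250 bases before to 50 after the start. They are written 5′ to 3′ on the gene's strand, here the minus strand for all 4. The windows are chr16:10785487-10785786 for Socs1, chr11:117969317-117969616 for Socs3, chr5:92348840-92349139 for Cxcl10 and chr13:56296502-56296801 for Cxcl14. Capitals mark the matches.
Socs1: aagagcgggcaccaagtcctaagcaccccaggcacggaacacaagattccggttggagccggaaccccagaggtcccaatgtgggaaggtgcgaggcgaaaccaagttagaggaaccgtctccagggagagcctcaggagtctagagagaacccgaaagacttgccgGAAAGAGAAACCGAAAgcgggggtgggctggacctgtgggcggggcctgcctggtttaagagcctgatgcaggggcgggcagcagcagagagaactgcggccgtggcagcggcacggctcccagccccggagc
Socs3: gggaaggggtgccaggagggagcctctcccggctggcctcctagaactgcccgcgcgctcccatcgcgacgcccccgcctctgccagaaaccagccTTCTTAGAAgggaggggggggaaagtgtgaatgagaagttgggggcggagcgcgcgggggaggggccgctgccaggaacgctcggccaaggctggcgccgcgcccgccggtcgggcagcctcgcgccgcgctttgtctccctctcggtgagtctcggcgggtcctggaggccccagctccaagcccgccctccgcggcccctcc
Cxcl10: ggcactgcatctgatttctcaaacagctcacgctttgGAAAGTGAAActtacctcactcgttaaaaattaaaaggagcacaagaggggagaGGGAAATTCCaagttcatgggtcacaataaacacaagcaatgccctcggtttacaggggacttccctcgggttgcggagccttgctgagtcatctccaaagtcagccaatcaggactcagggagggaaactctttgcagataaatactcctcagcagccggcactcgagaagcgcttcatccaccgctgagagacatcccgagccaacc
Cxcl14: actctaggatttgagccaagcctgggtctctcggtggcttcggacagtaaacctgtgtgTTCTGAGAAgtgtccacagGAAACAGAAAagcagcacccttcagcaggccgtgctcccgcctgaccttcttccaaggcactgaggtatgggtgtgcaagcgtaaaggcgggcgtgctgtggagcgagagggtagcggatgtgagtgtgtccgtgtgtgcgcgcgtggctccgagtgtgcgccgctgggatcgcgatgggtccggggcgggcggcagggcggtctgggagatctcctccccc
The patterns searched, on both strands, were TTCNNNGAA (the STAT or GAS pattern), TTTCNNTTTC (the interferon-response or ISRE pattern) and GGGANNTTCC (the NF-κB pattern). Socs1 held 2 overlapping ISRE matches, Socs3 held 1 GAS match, Cxcl10 held 1 ISRE and 1 NF-κB match, and Cxcl14 held 1 GAS and 1 ISRE match. The GAS pattern occurred in 16.8% of the 185 promoters found for 152 member genes and in 8.3% of all 32851 promoters in the table. The ISRE pattern occurred in 14.1% of the member promoters and in 3.44% of all, and the NF-κB pattern in 8.65% of the member promoters and in 1.47% of all. Of the 20 genes described below, 15 had a promoter in the table, and 3 of them held a GAS match (Ccr1l1, Cxcl14, Socs3), 3 an ISRE match (Cxcl10, Cxcl14, Socs1) and 1 an NF-κB match (Cxcl10). Ccr1l1 thus held a match too, but its sequence is not shown. A match is a stretch of letters and no evidence of binding.

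The ratios of most members were small. Among the 123 members with a value on all 4 arrays the median log2 ratio was 0.03, -0.03, -0.03 and -0.04 at 1, 2, 4 and 6 h. Positive ratios were held by 67, 55, 53 and 50 of the 123 at 1, 2, 4 and 6 h, which is 54.5%, 44.7%, 43.1% and 40.7%. Over all 7684 features the positive shares were 45.6%, 49.0%, 50.5% and 50.7%, so the members lay above the table's share at 1 h and below it later. Of the members, 29 (23.6%) were positive at 1 h and negative at each of 2, 4 and 6 h, against 14.7% of all features. The opposite pattern was held by 15 members (12.2%), against 17.2% of all. The same sign on all 4 arrays was found for 8 positive members (6.50%, against 11.6%) and 11 negative members (8.94%, against 13.9%).

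**Figure D1:**
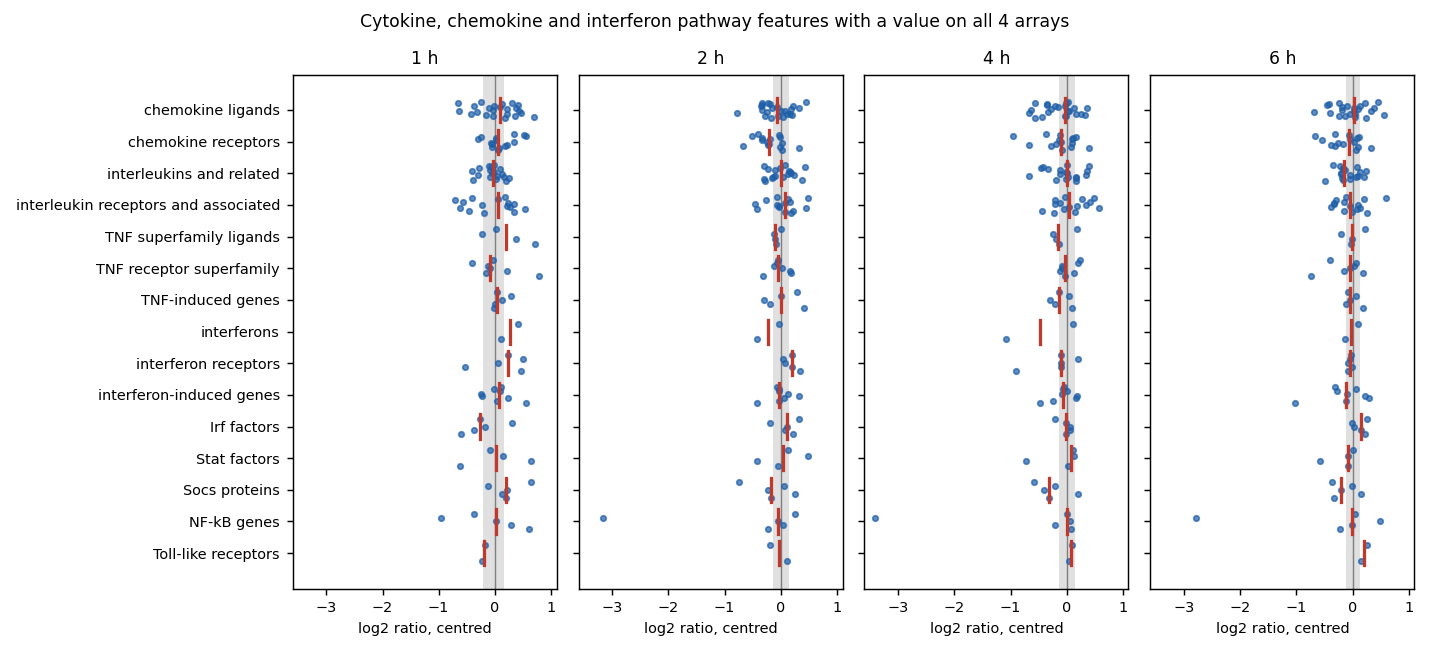
Centred log2 ratios (x axis) of the 123 members with a value on all 4 arrays, 1 point per feature, by role (rows) and time (panels). Red lines are role medians and the grey band is the middle 50% of all 7684 features. Most members lie near the band, Nfkbib lies alone below -2.7 at 2, 4 and 6 h, and the Socs median is 0.20 at 1 h and -0.31 at 4 h.

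The 1 h array stood apart from the others. Over 122 members (leaving out features below -1.5 on any array, of which Nfkbib is one), the ratios at 1 h correlated with those at 2, 4 and 6 h at Pearson r = -0.39, -0.34 and -0.32. Over 7645 features of the whole table the same values were -0.13, -0.14 and -0.14. The later arrays correlated with each other at 0.46 (2 with 4 h), 0.58 (2 with 6 h) and 0.44 (4 with 6 h) over the members, and at 0.46, 0.53 and 0.70 over all features. These describe features of shared arrays, which are not independent. Of the 123 members, 50 (40.7%) were positive at 1 h with a negative mean over 2, 4 and 6 h, against 24.9% of all features. Of these, 29 are the members negative at each later time, and they would share 1 sign at all times had the 1 h array run in the other direction. So would the 15 members of the opposite pattern, while the 8 positive and 11 negative members with the same sign on all 4 arrays would no longer share it. Its direction was not tested.

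**Figure D2:**
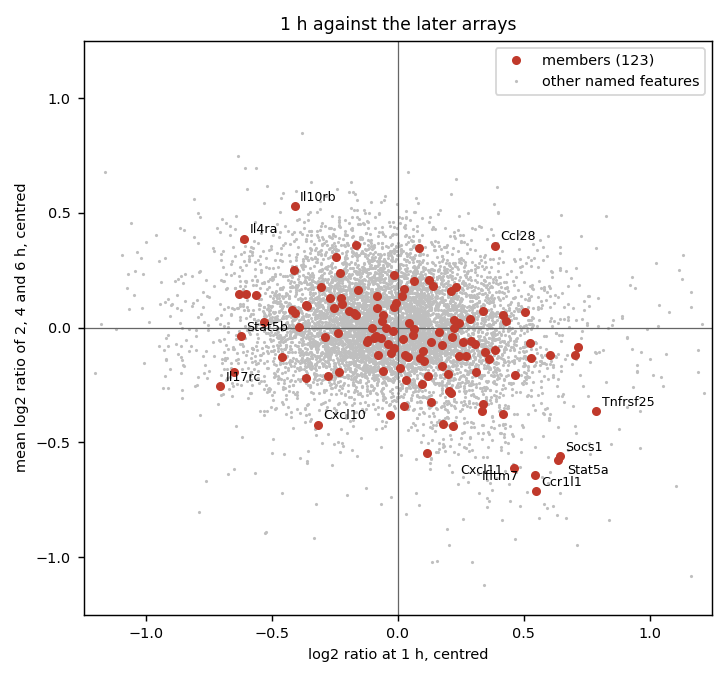
Log2 ratio at 1 h (x axis) against the mean log2 ratio of 2, 4 and 6 h (y axis) for the 123 members (red) and the other named features with values on all 4 arrays (grey). The axes leave out the most extreme grey points and Nfkbib. The lower right quadrant holds 50 members, the upper left 31.

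With all 4 arrays weighted equally and centred, no member passed the mean, the slope or the late against early test. limma placed 0 of 123 members past an adjusted p of 0.05 for the mean over the times, beside 0.0% of all 7684 features, and 15 members had an unadjusted p under 0.05 (1138 of all). The lowest adjusted p was 0.191, for Nfkbib. The slope on log2 hours gave 0 members beside 0.0% of all features, with 20 members at an unadjusted p under 0.05 (1187 of all) and a lowest adjusted p of 0.270, for Ifitm7. The 4 and 6 h arrays against the 1 and 2 h arrays also gave 0 members beside 0.0% of all, with 3 members at an unadjusted p under 0.05 (437 of all). The error behind these p-values is how far arrays of different times differ, since no time was repeated.

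For the mean over the times, the outcome turned on the 1 h array. Without it, the mean of 2, 4 and 6 h passed for 20 members (16.3%), beside 12% of all features. Of these, 4 were positive (3.25% of the members, beside 6.61% of all) and 16 were negative (13.0%, beside 5.4% of all). Leaving out the 2, 4 or 6 h array instead gave 0 members each, and array weights, which let arrays count unequally, gave 31 (25.2%), beside 27.2% of all features. Of the 16 negative members, 13 were positive at 1 h. The 20 were singled out after their values were seen, and the following paragraphs give them with the other members of their role. Only features with values on all 4 arrays were tested, and the counts of features by role below are of these. Each "mean of the later arrays" below is that of 2, 4 and 6 h with its SD over these 3 arrays, and each adjusted p beside it is limma's for the fit without 1 h.

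**Figure D3:**
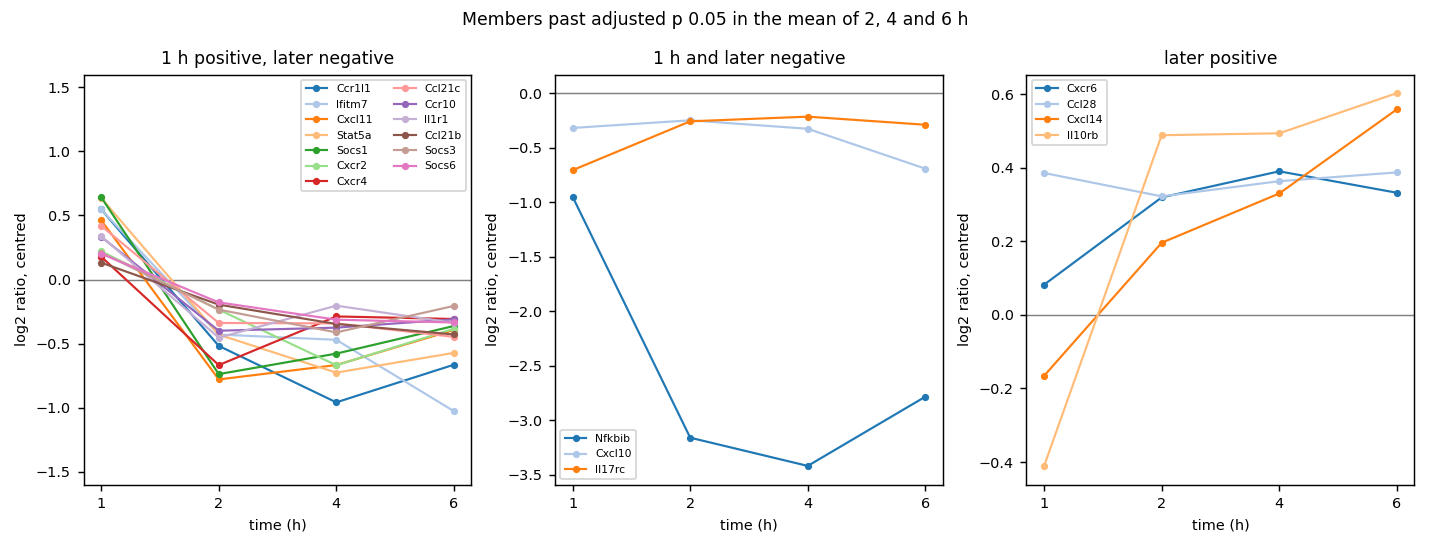
Centred log2 ratio (y axis, a different scale in each panel) by time in h (x axis) of the 20 members whose mean over 2, 4 and 6 h passed an adjusted p of 0.05, 1 line per feature. The left panel holds 13 members above 0 at 1 h and below 0 later, the middle panel the 3 below 0 throughout, and the right panel the 4 above 0 later.

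Of the 5 features of Socs genes, inhibitors of cytokine signalling, 3 passed, all with negative later means. Socs1, which blocks Janus kinases, read 0.64, -0.74, -0.58 and -0.36 at 1, 2, 4 and 6 h. Its later mean was -0.56 ± 0.19 (adjusted p 0.0258), and a further Socs1 feature, with a value at 1 h alone, read 0.56 there. Socs3, the inhibitor of interleukin 6 family signalling, read 0.21, -0.23, -0.41 and -0.21 at 1, 2, 4 and 6 h, with a later mean of -0.28 ± 0.11 (adjusted p 0.0482). Socs6, which targets growth factor and cytokine signalling proteins for degradation, read 0.20, -0.18, -0.31 and -0.34, with a later mean of -0.28 ± 0.08 (adjusted p 0.0450). In all 3 the 1 h ratio lay on the other side of 0 from every later ratio. Socs5 read 0.12, 0.26, 0.20 and 0.16 and Socs2 read -0.12, 0.05, -0.20 and -0.01, and neither passed. A second Socs2 feature read 0.64 at 1 h alone.

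Among the 4 Stat features, 1 passed. Stat5a, a transcription factor downstream of growth hormone, prolactin and several interleukins, read 0.64, -0.43, -0.73 and -0.57 at 1, 2, 4 and 6 h. Its later mean was -0.58 ± 0.15 (adjusted p 0.0198). Its close relative Stat5b read -0.63, -0.05, 0.03 and -0.09, negative at 1 h where Stat5a was positive. Stat3, which carries interleukin 6 signals, read 0.14, 0.49, 0.13 and -0.08 on 1 feature, and a second Stat3 feature read 0.13 at 2 h, -0.20 at 4 h and -0.07 at 6 h. Stat4, which carries interleukin 12 signals, read -0.04 at 1 h and 0.51 at 2 h and had no later value.

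Of 23 chemokine ligand features on all 4 arrays, 2 passed with positive and 4 with negative later ratios. Cxcl11, an interferon-inducible ligand of Cxcr3, read 0.46, -0.78, -0.67 and -0.39 at 1, 2, 4 and 6 h (later mean -0.61 ± 0.20, adjusted p 0.0235). A second Cxcl11 feature read 0.62 at 1 h and -0.47 at 2 h, the same signs. Cxcl10, a further ligand of Cxcr3, read -0.32, -0.25, -0.33 and -0.69 (later mean -0.42 ± 0.24, adjusted p 0.0475), while its second feature read 0.37 at 1 h, -0.23 at 2 h and -0.18 at 6 h. The Cxcl10 features thus differed in sign at 1 h and shared it later. Ccl21b and Ccl21c, near-identical copies of the Ccr7 ligand whose features may share targets, had later means of -0.32 ± 0.12 (adjusted p 0.0412) and -0.38 ± 0.06 (adjusted p 0.0263). Ccl21b read 0.13, -0.20, -0.35 and -0.43 over the 4 times and Ccl21c 0.42, -0.34, -0.34 and -0.45, positive at 1 h and negative after it.

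The positive ligands were Ccl28 and Cxcl14. Ccl28, a chemokine of mucosal tissues that binds Ccr10, read 0.39, 0.32, 0.36 and 0.39 at 1, 2, 4 and 6 h. Its later ratios varied least of the 20 members, with a mean of 0.36 ± 0.03 (adjusted p 0.0263), and its second feature had 1 value, 0.06 at 4 h. Cxcl14, a chemokine expressed in brain, read -0.17, 0.20, 0.33 and 0.56 on feature 9722 (later mean 0.36 ± 0.18, adjusted p 0.0472), but -0.42, 0.11, 0.16 and -0.04 on feature 9059. The Cxcl14 features differed in sign at 6 h. Cxcl12, the ligand of Cxcr4, read 0.21, 0.17, 0.26 and 0.05 and did not pass. Ccl9, a macrophage chemokine, read -0.63, 0.08, 0.03 and 0.33 on feature 15620, while its feature 9056 was positive at every time.

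The chemokines best known in inflamed tissue gave few repeated values. Ccl2, which recruits monocytes, read 0.31, -0.24, -0.57 and 0.22 on 1 feature, and 1.02 at 1 h and -0.27 at 6 h on its second. Ccl4 read 0.22, 0.18, -0.28 and 0.10, and its second feature read 0.62 at 1 h alone. Ccl3 read 0.22, -0.02 and 0.20 at 1, 2 and 6 h, and Ccl5 read 0.65 at 2 h and 0.26 at 6 h on 1 feature and 0.53 at 1 h on another. Ccl2, Ccl3 and Ccl4 had ratios of both signs and Ccl5 had positive ones only. Ccl2 and Ccl4 did not pass, and Ccl3 and Ccl5, without values on all 4 arrays, were not tested. Cxcl1, a neutrophil attractant, read 0.63 at 1 h and -1.31 at 6 h on feature 18451, and 0.16, -0.63 and -0.34 at 1, 2 and 6 h on feature 12922. Its relative Cxcl2 read 0.20 at 1 h and -2.55 at 4 h on feature 6063, but 0.29, 0.07 and 0.44 at 2, 4 and 6 h on feature 3347. The Cxcl1 features shared their signs, and the Cxcl2 features did not share the low ratio at 4 h. Ccl27a, a skin chemokine that binds Ccr10, read 0.38, -0.91 and -1.62 at 1, 2 and 4 h on feature 15423, but -0.10, -0.16, 0.14 and 0.02 on feature 17747. Ccl19, a further ligand of Ccr7, read -0.57, -0.27 and 0.47 at 1, 2 and 6 h on feature 12841 and -0.65, -0.33, -0.01 and -0.24 on feature 15297, which differ in sign at 6 h.

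Of 15 chemokine receptor features, 1 passed with positive and 4 with negative later ratios. Ccr1l1, a receptor similar to Ccr1, read 0.55, -0.52, -0.96 and -0.67 at 1, 2, 4 and 6 h on feature 6834 (later mean -0.71 ± 0.22, adjusted p 0.0205), but -0.25, -0.02, 0.17 and 0.11 on feature 12239. Cxcr4, the receptor of Cxcl12, read 0.18, -0.67, -0.29 and -0.31 on feature 6801 (later mean -0.42 ± 0.21, adjusted p 0.0432), but -0.06, -0.02, 0.08 and 0.10 on feature 9119. The features of each of these receptors did not agree in sign at 4 and 6 h. Ccr10, the receptor of Ccl27 and Ccl28, read 0.33, -0.40, -0.38 and -0.31 on feature 11862 (later mean -0.36 ± 0.05, adjusted p 0.0263) and 0.52, -0.03, -0.11 and -0.06 on feature 18478, the same signs, while 1 more feature read 0.15 at 2 h alone. Cxcr2, the neutrophil receptor of Cxcl1 and Cxcl2, read 0.22, -0.24, -0.67 and -0.38 (later mean -0.43 ± 0.22, adjusted p 0.0432), while feature 5998 read -0.12, -0.23 and -0.20 at 1, 2 and 6 h and feature 7419 read -0.06 at 1 h. The Cxcr2 features shared their later sign and differed at 1 h. Cxcr6, the receptor of Cxcl16, was positive throughout at 0.08, 0.32, 0.39 and 0.33 on feature 6061 (later mean 0.35 ± 0.04, adjusted p 0.0284), and its feature 13516 read between -0.09 and 0.06. Ccr4 gave 0.86 at 6 h on a feature with no other value, but -0.29, -0.19, 0.10 and -0.04 on feature 7624.

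Of 15 interleukin receptor features, 1 passed with positive and 2 with negative later ratios. Il10rb, the receptor chain shared by interleukin 10 and its relatives, read -0.41, 0.49, 0.49 and 0.60 at 1, 2, 4 and 6 h (later mean 0.53 ± 0.06, adjusted p 0.0142). It had the lowest adjusted p of the members outside the NF-κB group, and its second feature read -0.20 at 1 h alone. Il17rc, a subunit of the interleukin 17 receptor, read -0.71, -0.26, -0.22 and -0.29, negative at every time (later mean -0.25 ± 0.04, adjusted p 0.0434). Il1r1, the signalling receptor of interleukin 1, read 0.34, -0.45, -0.20 and -0.34 on feature 9466 (later mean -0.33 ± 0.12, adjusted p 0.0412) and 0.24, 0.07, -0.12 and -0.33 on feature 2954, so its features shared a sign at 1, 4 and 6 h. The 3 features of Il6ra, the interleukin 6 receptor, differed at 1 h (0.53, -0.46 and 0.34), and none passed. Il9r read -2.78 at 4 h and -3.04 at 6 h on feature 9165 against 0.55 at 6 h on feature 10991, so its lowest ratios were not shared by its features. Il5ra, an eosinophil receptor, read 1.28 at 1 h and -1.06 at 6 h, and the 2 features of Il1rl2 read 1.19 and 0.64 at 1 h alone.

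None of the 18 interleukin features passed. The classical inflammatory interleukins were scarcely measured: Il1b read 0.28 at 1 h and 0.43 at 2 h on 1 feature and 0.41 at 2 h on another, and Il6 read -0.01 at 2 h and 0.01 at 6 h. Il6st, the signal chain shared by the interleukin 6 family, read -0.06, -0.42 and 0.16 at 2, 4 and 6 h. Of those on all arrays, Il17a, a T cell cytokine, read -0.41, 0.15, 0.37 and 0.23. Il15, which sustains lymphocytes, read -0.28, -0.02, -0.46 and -0.17, negative at every time. Il1rn, the antagonist of the interleukin 1 receptor, read 0.03, -0.10, -0.68 and 0.09. Among those with fewer values, Il22 read 0.48 and 0.53 at 1 and 2 h and 0.64 at 1 h on a second feature. Il12a read 0.21 and -0.97 at 1 and 2 h on feature 15389 and -0.10, -0.31, 0.40 and -0.23 on feature 8403. Il4i1, an amino acid oxidase induced by interleukin 4, read -0.72, 0.21 and 0.40 at 1, 2 and 4 h on 1 feature and 0.14 and 0.32 at 1 and 6 h on another, so its sign at 1 h differed between features.

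The interferon arm held 1 feature that passed. Ifitm7, of a family of membrane proteins that hinder virus entry, read 0.55, -0.43, -0.47 and -1.03 at 1, 2, 4 and 6 h (later mean -0.64 ± 0.33, adjusted p 0.0383). Its relative Ifitm2 was positive throughout at 0.23, 0.06, 0.17 and 0.29, so the 2 did not share a direction after 1 h. A further relative, Ifitm3, read 0.04, -0.02, -0.24 and -0.12, the same signs as Ifitm7 at smaller sizes. The other 7 interferon-induced features did not pass, nor did the 5 interferon receptor and 5 Irf features. Ifnar1, of the type I interferon receptor, read 0.24, 0.20, -0.10 and -0.03 on 1 feature and 0.50, 0.05, 0.20 and -0.05 on its second. Ifnar2, its partner chain, gave -0.18 and -0.29 at 1 h and 0.21 and 0.07 at 6 h on 2 features. Ifngr1, of the interferon gamma receptor, read 0.06, 0.08, -0.10 and -0.08 on 1 feature and -0.53, 0.19, -0.10 and -0.01 on another, which differ in sign at 1 h. Ifi202b, an interferon-inducible DNA sensor family gene, read 1.27 at 1 h and -0.26 at 2 h on feature 14550 and -0.56 and 0.03 on feature 12729, the opposite signs.

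The interferons themselves were rarely measured. Ifng, interferon gamma, read 0.39 at 1 h and -2.22 at 4 h on 1 feature and 0.22 at 2 h and -0.30 at 6 h on another. Ifna6 read 0.12, -0.42, -1.08 and -0.14, and 0.31 at 2 h on its second feature. Ifna2 read 0.42, -0.04, 0.11 and 0.09, and 0.14 at 2 h on its second feature, so the features of each differed in sign at 2 h. The interferon alpha genes are close copies of each other, so a feature of 1 may report others. Among the Irf transcription factors, Irf1 read -0.27, 0.33, -0.21 and 0.26, Irf3 read -0.17, 0.12, 0.05 and 0.02, and Irf9, the DNA-binding part of the interferon-response complex, read -0.61, 0.22, -0.01 and 0.22. Of the 5 Irf features, 4 were negative at 1 h and 4 were positive at 2 h. Irf7, the amplifier of type I interferon production, read -0.34, -1.04 and 0.70 at 1, 2 and 4 h and had no value at 6 h.

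No feature of the tumour necrosis factor families passed, of 4 ligand, 7 receptor and 5 TNF-induced features. Tnf itself read 0.016, -0.0014, 0.19 and 0.22 on 1 feature, and its other features read -0.41 and -0.27, and 0.35 and -0.04, at 1 and 2 h. Tnfrsf1a, its main receptor, read between -0.12 and 0.02 on both of its features. Tnfrsf25, a death receptor of T cells, read 0.79, -0.32, -0.03 and -0.75 at 1, 2, 4 and 6 h, the highest 1 h ratio among members on all 4 arrays. Tnfsf4, the ligand known as OX40L, read 0.72 at 1 h and -0.09, -0.14 and -0.02 later, and its second feature read 0.41 at 2 h and -0.18 at 6 h. Tnfsf13 was negative at every time (-0.23, -0.13, -0.25 and -0.20), and Tnfrsf21 read -0.16, 0.18, 0.13 and 0.18. Tnfrsf19 read -0.41, -0.06, 0.20 and 0.05 on 1 feature and 0.05, -0.13 and 0.14 at 2, 4 and 6 h on another. Tnfrsf10b read 0.05, 0.28 and 0.19 at 2, 4 and 6 h, and -0.14 at 1 h on its second feature. Tnfaip6 read 0.01, -0.20, -0.21 and -0.12, and Tnfaip8l2 read -0.02, 0.41, 0.09 and 0.19.

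Nfkbib, which encodes the inhibitor IκBβ, had the lowest ratios of the members on all 4 arrays. It read -0.95, -3.16, -3.42 and -2.79 at 1, 2, 4 and 6 h on its 1 feature, number 15762 (later mean -3.12 ± 0.32, adjusted p 0.000219). Features with nearby numbers were low too. Within 10 numbers of it, 9 of 17 other features at 2 h, 9 of 14 at 4 h and 9 of 14 at 6 h were at or below -1, with medians of -1.47, -2.25 and -2.28. Across all named features with a value, 0.969%, 2.1% and 1.47% were at or below -1 at those times. What part the position plays in the Nfkbib ratio was not tested. The other NF-κB features with values on all 4 arrays did not pass, and those with fewer values were not tested. Nfkbia, which encodes IκBα, read -0.37, 0.25, 0.01 and 0.04, Nfkbie read 0.02, -0.04, 0.06 and 0.49, and Nfkbil1 read -0.74 and 0.31 at 1 and 2 h. Nfkbiz, an atypical IκB protein of the nucleus, read 0.29, 0.04, -0.20 and -0.02 on feature 14663 and 0.60, -0.22, 0.08 and -0.22 on feature 18515. Of the Toll-like receptors, which sense microbial molecules, Tlr2 read -0.17, -0.19, 0.10 and 0.25 on 1 feature and -0.54 and 0.13 at 1 and 2 h on another, and Tlr3 read -0.22, 0.12, 0.05 and 0.14. Tlr4 read 0.13, -0.39 and -0.09 at 1, 2 and 4 h on 1 feature and -0.24 and -0.08 at 4 and 6 h on another.

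**Figure D4:**
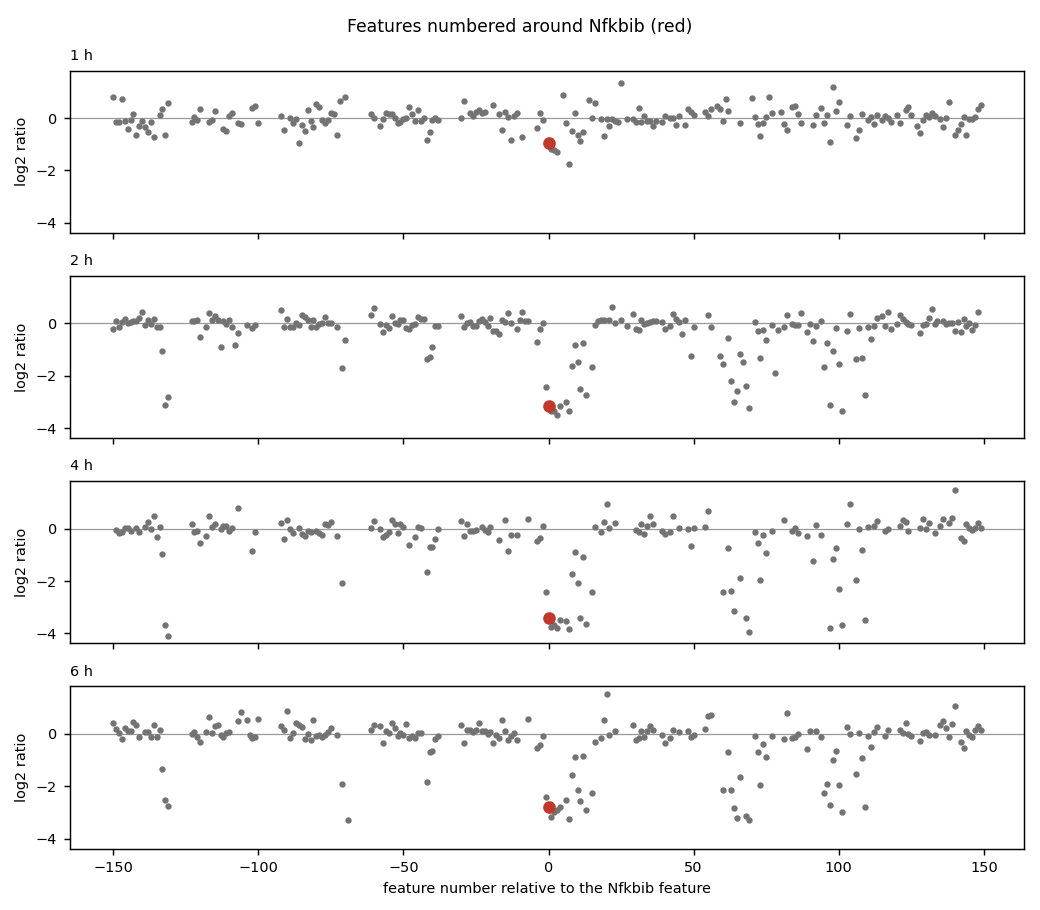
Log2 ratio (y axis) of features, with or without a gene symbol, against their feature number relative to that of Nfkbib (x axis). There is 1 panel per time, with Nfkbib in red. At 2, 4 and 6 h, 9 of the features within 10 numbers of Nfkbib lie at or below -1, and further runs of low ratios lie elsewhere in the window.

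The 1 h array was also set against the mean of the later 3, a comparison added after the values had been seen, in which 1 array stands alone and is assumed to vary like the others. It restates, feature by feature, that the 1 h array stood apart, has no error of its own for 1 h, and is no separate support for the results above. limma gave 18 members, 6 positive (4.88%, beside 5.91% of all features) and 12 negative (9.76%, beside 4.96% of all). Nfkbib differed by -2.17 (adjusted p 0.0188), Nfkbiz feature 18515 by -0.72 (0.0451), Tnfsf4 by -0.80 (0.0255), Ccl21c by -0.80 (0.0258) and Il1r1 feature 9466 by -0.67 (0.0399). Stat5a differed by -1.21 (adjusted p 0.0205), Ccr1l1 by -1.26 (0.0258), Socs1 by -1.20 (0.0255), Ifitm7 by -1.19 (0.0427) and Cxcl11 by -1.08 (0.0288), each later minus 1 h. Both Ccr10 features on all 4 arrays passed, at -0.70 and -0.59 (adjusted p 0.0288 and 0.0345). In the positive direction were Il4ra, the interleukin 4 receptor chain, at 1.00 (0.0354), Il10rb at 0.94 (0.0206), Ccl9 at 0.78 (0.0379), Irf9 at 0.75 (0.0344), Il17a at 0.67 (0.0371) and Stat5b at 0.59 (0.0372). Ccl9 here is feature 15620 and Ccr1l1 is feature 6834. Their other features had the opposite sign, with Ccl9 feature 9056 at -0.40 and Ccr1l1 feature 12239 at 0.34. The other Nfkbiz and Il1r1 features, 14663 and 2954, kept the sign, at -0.35 and -0.37. A constant dye bias cancels in the later minus 1 h difference and does not in the mean of the later arrays.

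Members often had a value at 1 h and none later. This held for 48 of the 281 members (17.1%), against 7.60% of all named features with a value. Of the 48, 39 were positive, with a median of 0.55, and of all 929 such features 75.2% were positive, with a median of 0.42. Values were held by 236, 216, 152 and 167 members at 1, 2, 4 and 6 h. At 1 h, 7 members (2.97%) reached a log2 ratio of 1, beside 1.68% of features: Il5ra, Ccl2, Cxcl9, Il13ra1, Il1f5, Il1rl2 and Ifi202b, none of them on a feature with values on all 4 arrays. None was at or below -1, beside 0.453%. At 2 h none reached 1, beside 0.0%, and Irf7 and Nfkbib (0.926% of members) were at or below -1, beside 0.969%. At 4 h none reached 1, beside 0.112%, and 7 (4.61%) were at or below -1, beside 2.1%: Tlr6, Ifna6, Ifng, Cxcl2, Il9r, Ccl27a and Nfkbib. At 6 h none reached 1, beside 0.131%, and 5 (2.99%) were at or below -1, beside 1.47%: Il5ra, Ifitm7, Il9r, Nfkbib and Cxcl1. With 1 array per time these counts have no replicate error.

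Where a gene had several features, they set a scale for error within an array. The 2 features of a member gene had the same sign in 40 of 70 pairs at 1 h, 33 of 53 at 2 h, 15 of 30 at 4 h and 19 of 36 at 6 h. The median difference within a pair was 0.31, 0.26, 0.23 and 0.20, while the median size of a value was 0.27, 0.19, 0.13 and 0.15. Features of 1 member gene therefore differed by more than a typical member ratio at each time. Over all genes with several features the median difference was 0.29, 0.20, 0.18 and 0.15 and the median size 0.24, 0.16, 0.18 and 0.16, and the same sign was held by 54.8%, 56.9%, 61.7% and 64.3% of pairs. Of the 20 members that passed without 1 h, 8 rested on the gene's 1 feature with a value. For 10, other features gave 25 later values, of which 17 had the sign of the member. The shares over all genes at 2, 4 and 6 h were the 56.9%, 61.7% and 64.3% above. No matching count was made for all features that passed, so the 17 cannot be called particular to these members.

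**Figure D5:**
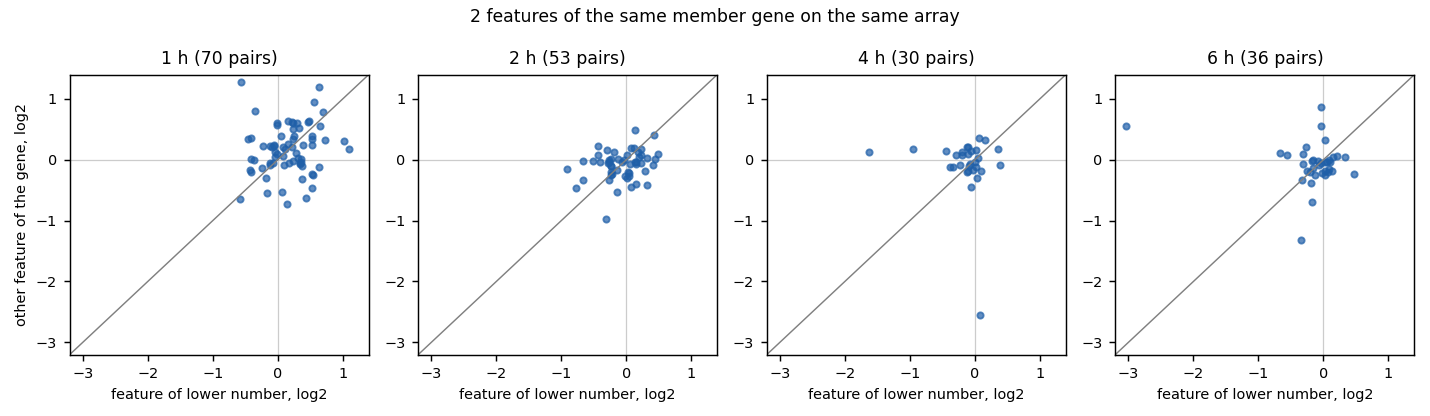
Log2 ratios of 2 features of the same member gene on the same array, the feature of lower number on the x axis and the other on the y axis, 1 point per pair and 1 panel per time, with the line of equality. Points scatter widely about the line, and the same sign is held by 40 of 70 pairs at 1 h and 15 of 30 at 4 h.

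Genes of these pathways outside the chosen families are counted here in the fit without the 1 h array, which called 12% of all features. Of 19 features of kinases and adaptors, Fadd, an adaptor of death receptors, and 1 feature of the Janus kinase Tyk2 passed with positive later means, and the other Tyk2 feature passed with a negative one. Of 24 features of further interferon-stimulated genes, 1 passed, the antiviral Mx2, with a negative mean. None passed of 10 features of a list of NF-κB genes (Rel, Rela, Relb, Bcl3) and other signalling regulators (Pias1, Ptpn11, Cish). Of 21 features of other cytokines and receptors, lymphotoxin alpha (Lta) and the growth hormone receptor (Ghr) passed with negative means. Microglia express many of the members. Of 17 listed microglial markers 14 had a value, and of their 17 features on all 4 arrays 3 passed, all positive: Fcer1g (later mean 0.26), Ctss on 1 of its features (0.43) and Tyrobp on 1 of its features (0.31). Of the 17 features, 8 had a negative later mean, among them C1qc (-0.24), Ptprc (-0.21), C1qa (-0.20), Csf1r (-0.19) and both P2ry12 features (-0.13 and -0.14), and none of these passed. The median microglial marker ratio was -0.11, -0.07, -0.02 and 0.11 at 1, 2, 4 and 6 h. Of 12 astrocyte marker features 3 passed, all positive: Aldoc, Slc1a3 and Gfap. The only negative later means among the 12 were those of Aqp4 (-0.12) and 1 Slc1a2 feature (-0.16). Of 5 choroid plexus features 2 passed, both negative: Ttr (-0.73) and Kl on feature 13730 (-2.95). The other Kl feature, 2148, had a later mean of -0.13 and did not pass. Of 6 endothelium and pericyte features, Esam passed with a positive mean (0.25) and Flt1 with a negative one (-0.34). None of 4 blood and 3 lymphocyte features passed, and of 9 neuron and granule cell features 1 passed, Map2, with a positive mean (0.32). Prox1 (0.29) and Syt1 (0.06) were positive too. Later means were negative for Nefl (-0.10), Tubb3 (-0.07), both Calb1 features (-0.17 and -0.04) and both Camk2a features (-0.01 and -0.05). The part these cell types play in the members' ratios was not tested.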

How the data were processed

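RNA of mouse dentate gyrus was compared on 4 two-colour arrays, 1 per time. The authors deposited 1 table of log ratios, read here as log2. Scanning, background correction and normalization are not given in the sources used here, and signal over background was not examined. Precision is limited by there being 4 arrays. Symbols came from the platform annotation, and the Entrez identifiers of all 281 members matched GRCm38.p6. Of the 16281 features, 13738 had 1 symbol, 52 several and 2491 none.

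Exact 0 was dropped and arrays were median-centred. All 7684 named features with 4 values were fitted per feature in limma 3.58.1 (R 4.3.3; lmFit, eBayes, two-sided, Benjamini-Hochberg at 0.05 over all), after the script was tested on simulated data. The fits were the mean over times, the slope on log2 hours, and 4 and 6 h minus 1 and 2 h. Log2 ratios of 1 and -1 were used to count members on single arrays. Promoter motifs were searched by letters on both strands.

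The members and gene lists were chosen with earlier results of these data known. Named members were those passing a test or reaching 1 in size with 4 values, the 5 highest and 5 lowest means, the 5 steepest slopes by p each way, the 2 largest means per role, the 3 largest values each way per time among members with fewer values, and a list of classical genes. The 20 members passing without 1 h, and those passing in later minus 1 h, were named after their values were seen. Alternatives were no centring, equal spread, quantile normalization, values on 3 arrays, exact 0 as a value, array weights and gene means. Others left out each array in turn, or a stretch of feature numbers around Nfkbib that holds many low ratios. A fit of 1 h alone as the early time, and one without both 1 h and that stretch, were added after seeing the data.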

Additional observations from a re-analysis of the deposited data

How the results depend on the processing

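For the mean over times, 0 members passed as reported, 1 with quantile normalization (Nfkbib, adjusted p 0.0365) and 31 with array weights, while leaving out 1 array gave 0 to 20. Over all features those counts were 0, 9 and 2088, with 923 without 1 h, and 15 for features measured on 3 or 4 arrays. All 20 members that passed without 1 h were among the 31. The array weights were estimated from these same values, so that overlap is no separate support for the 20. The matching overlap over all features is not given here. Without both 1 h and the stretch of feature numbers around Nfkbib, 19 of 119 members and 881 of 7583 features passed. For late against early times, 0 members passed as reported, leaving out 1 array gave 0 to 25 (25 without 2 h, with 1332 of all features), and 1 h alone as the early time gave 18, with 835 of all features. With exact 0 as a value 2 features passed late against early, and without 4 h 1 feature passed the slope. The slope gave 0 members under each of the 12 alternatives run. The cause of these shifts was not tested.

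The 7 members at or above 1 at 1 h became 0 with equal spread, 0 with quantile normalization, 3 with gene means and 0 among members on all 4 arrays. At or below -1, the count at 1 h was 0, and 1 with quantile normalization. At 2 h it was 2, against 8 with quantile normalization, 1 without the stretch and 1 among members on all 4 arrays. At 4 h it was 7, against 4 with quantile normalization and 2 on all 4 arrays, and at 6 h 5, against 2 on all 4 arrays. Of all 7684 features on all 4 arrays, 23 were at or above 1 at 1 h. Counts over all features are not given here for the other settings, so these shifts cannot be called particular to the members. Over 52 named features and 12 alternatives, the sign changed in 44 of 620 values for the mean, 45 for the slope and 38 for late against early. No paired analysis was possible because each time has 1 array. The unknown direction and the unswapped dyes limit every ratio.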
